A study of Mus musculus with 6 samples.

Results

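The 58 genes described here encode actin, the proteins that assemble, sever, bundle and pull on actin filaments, the proteins that tie those filaments to the membrane, and vimentin and the lamins, which are intermediate filaments. They were chosen by gene symbol from the 55401 genes listed in the deposited count tables, and each symbol was found once. Levels were compared between 2 sorted populations of splenic germinal centre B cells that the labels call DP and DN, with 3 libraries each. All 6 libraries came from wild-type C57BL/6 mice that had received sheep red blood cells into the peritoneal cavity, got a second challenge on day 5 and were killed on day 12. The labels give no age and do not say which markers DP and DN stand for. According to the design text 3 mice supplied both populations. Which mouse gave which library is not labelled, and a p-value here rests on library-to-library spread alone, part of which may be technical. Below, a level is a CPM value, the gene's count scaled to a common library total and for library composition, a mean level is given ± SD over 3 libraries, a change is a log2 fold change of DP over DN ± its standard error, and a gene was called when its Benjamini-Hochberg adjusted p over all tested genes, from edgeR's quasi-likelihood test, was under 0.05.

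Actin is one of the most abundant proteins of a lymphocyte. Its monomers are held by thymosins and profilin, are built into branched networks by the Arp2/3 complex and into unbranched filaments by formins and spire proteins, and are recovered when cofilin and gelsolin sever old filaments. In B cells this cortex shapes migration, the synapse through which antigen is extracted and the clustering of the antigen receptor. Vimentin forms a cage of filaments in the cytoplasm, while the lamins line the inside of the nuclear envelope.

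Counts assigned to genes lay between 17509384 and 20538024 per library in DP and between 8904415 and 11897360 in DN, so that 3 counts corresponded to 0.155 to 0.183 CPM in DP and to 0.236 to 0.315 CPM in DN. Such floors cover counting error only. Every library carried B cell and germinal centre transcripts. Bcl6, the transcriptional repressor that defines germinal centre B cells, stood at 76.5 ± 1.09 CPM in DP and 159.6 ± 1.93 CPM in DN, and 4 B cell genes summed to 1230.1 to 1261 CPM in DP libraries and 2037 to 2081 CPM in DN libraries. Of 8 germinal centre markers 7 were lower and 1 higher in DP. Markers of macrophages, erythroid cells, stromal cells, T cells, neutrophils and platelets summed to far lower levels than the B cell genes. The summed level of 8 macrophage and monocyte genes was 9.25 to 11.3 CPM in DP libraries and 23.4 to 26.1 CPM in DN libraries, with 6 lower and none higher in DP. For 7 erythroid genes it was 15.7 to 18.2 CPM in DP and 61.9 to 72.4 CPM in DN, with 6 lower. For 10 stromal and endothelial genes it was 5.74 to 7.19 CPM in DP and 6.83 to 10.3 CPM in DN, with 1 lower. The T cell, neutrophil and platelet lists summed to at most 1.07 CPM in any DP library and at most 3.98 CPM in any DN library, and Ly6g, Pf4, Gp9, Gp1bb and Treml1 had no count in any library. Of 5 dendritic cell genes, Xcr1 had no count and Flt3 and Zbtb46 were higher in DP, with a list sum of 40.6 to 42.8 CPM in DP and 24.3 to 24.9 CPM in DN. The naive B cell list summed to 95.2 to 101.6 CPM in DP and 91.7 to 100.6 CPM in DN, with 1 gene higher and 3 lower in DP. The plasma cell list summed to 292.9 to 305.9 CPM in DP and 386.9 to 397.8 CPM in DN, although 3 of its genes were higher in DP and 1 lower. The part of these cells in the results below was not tested.

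Most genes of the actin machinery were lower in DP, by modest amounts. Of the 58 members, 55 passed the filter on low counts, and 36 of these fell and 13 rose. The remaining 6 were not called. Called members made up 89.1% of those tested, where 75.9% of all 11296 tested genes were called in either direction. Members that fell made up 65.5%, where 37.6% of all tested genes fell, and members that rose 23.6%, where 38.3% of all tested genes rose. The median log2 fold change was -0.28 over the tested members and 0.01 over all tested genes. Only 3 members rose and 4 fell by 2-fold or more, where 12.3% of all tested genes rose and 12.8% fell by that much. Against a minimum change of 1.5-fold, 3 of the 55 rose and 14 fell, where 1964 of all 11296 tested genes rose and 1912 fell. The tested members were abundant, with a median level of 233 CPM, against 19.5 CPM over all tested genes, and the part of this in the share called was not tested. In bulk libraries, fewer cells that carry a transcript and less of it per cell cannot be told apart.

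The split between rising and falling members moved with the scaling. With library totals alone, which put the median of all tested genes at -0.19, 7 members rose and 39 fell, and the members' median was -0.48. At that scaling 3290 of all 11296 tested genes rose and 5355 fell. As a plain share of gene counts, free of any composition factor, the 58 genes took 2.72%, 2.77% and 2.74% of counts in the DP libraries, against 3.67%, 3.72% and 3.75% in the DN libraries. The groups did not overlap. Myh9, the heavy chain of non-muscle myosin II, had the largest drop in share among members, with 0.318% of counts in DP and 0.447% in DN. Swap70, an actin-bundling protein that B cells express at high level, had the largest gain, with 0.284% in DP and 0.242% in DN.

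**Figure D1:**
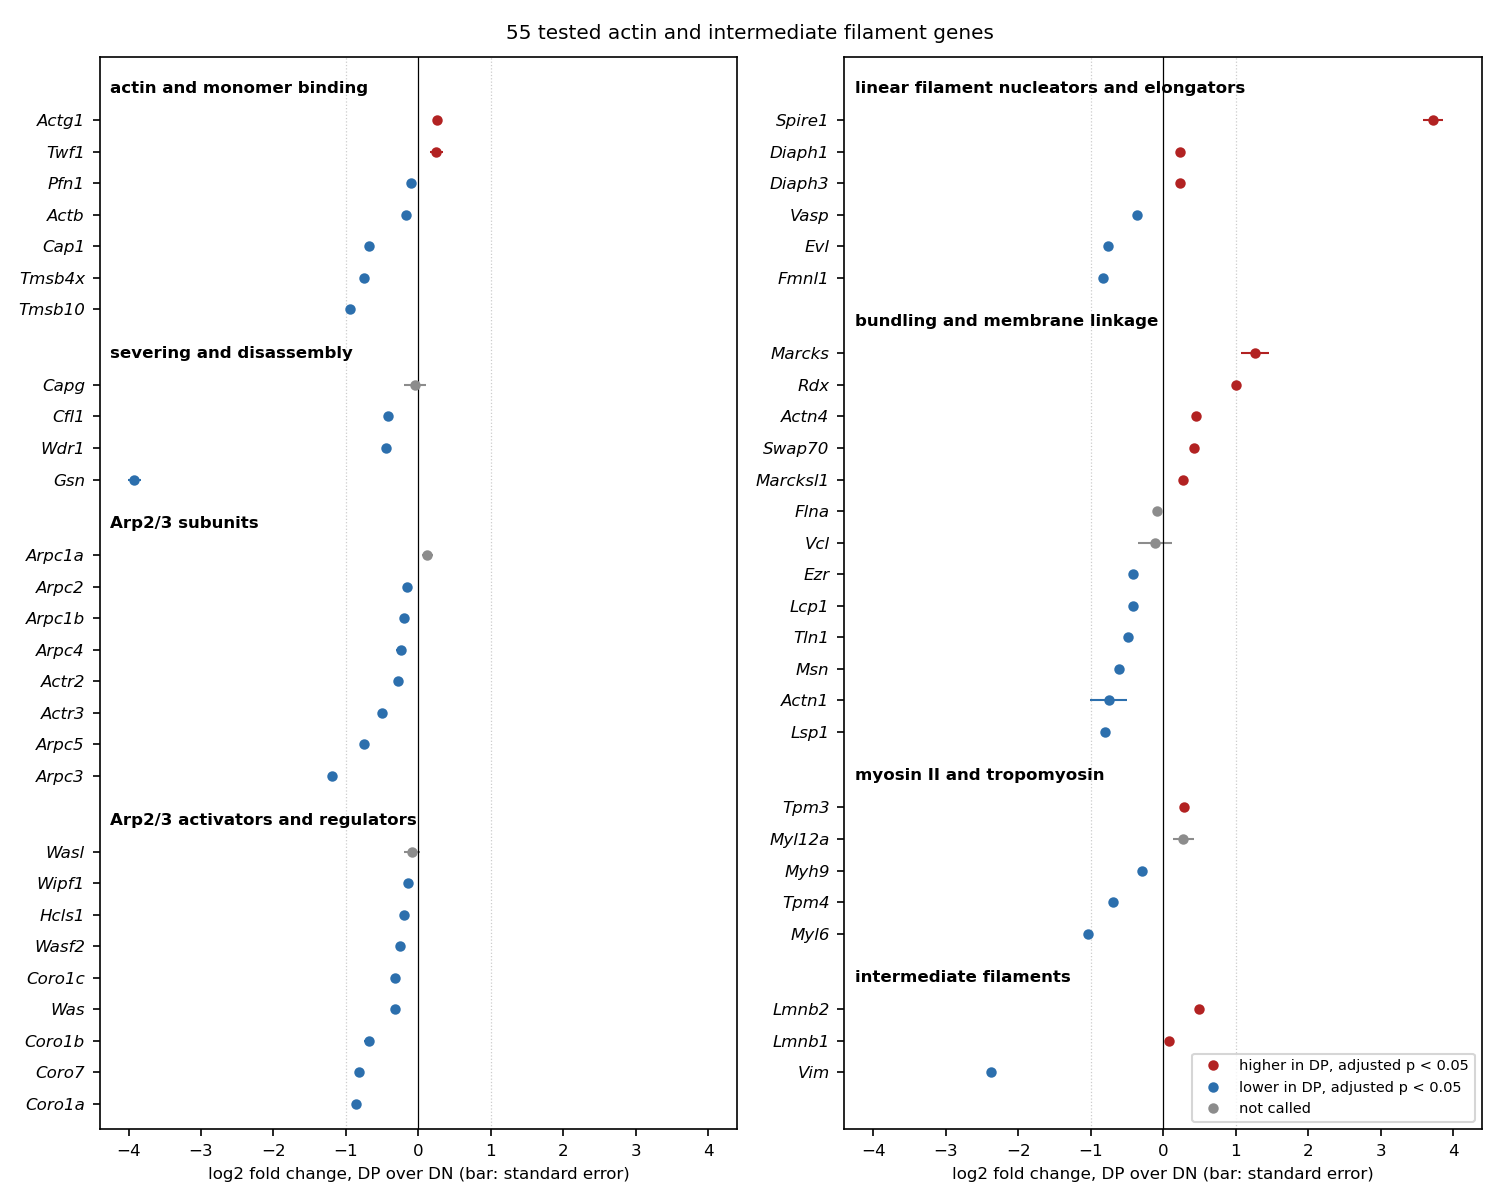
Log2 fold change of DP over DN (horizontal axis) for the 55 tested members, grouped by role, with bars for the standard error of the fit and dotted lines at a 2-fold change. Red points were called higher in DP, blue points lower and grey points not called. Spire1 at 3.73 and Gsn at -3.92 stand far from the rest, most of which lie between -1 and 0.5.

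Upstream regions of 4 genes are shown, of an actin gene that rose, of the members Gsn and Rdx that changed at least 2-fold in opposite directions, and of the Arp2/3 subunit gene that fell most. Each is the 250 bases before a RefSeq transcription start in GRCm38.p6, the build that mm10 denotes, written along the gene's own strand. Capitals mark a CArG box, the site bound by serum response factor (SRF), a regulator of actin genes, or the E-box CACGTG, a site bound by MYC and its partners. The Actg1 region is chr11:120348496-120348745 on the minus strand and the others lie on the plus strand, at chr2:35256109-35256358 for Gsn, chr9:52046900-52047149 for Rdx and chr5:122391628-122391877 for Arpc3.
Actg1: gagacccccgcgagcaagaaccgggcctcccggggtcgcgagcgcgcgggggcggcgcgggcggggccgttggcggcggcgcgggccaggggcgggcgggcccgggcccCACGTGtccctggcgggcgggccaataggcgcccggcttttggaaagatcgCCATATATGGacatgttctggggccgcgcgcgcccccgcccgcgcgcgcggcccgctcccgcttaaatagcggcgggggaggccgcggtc
Gsn: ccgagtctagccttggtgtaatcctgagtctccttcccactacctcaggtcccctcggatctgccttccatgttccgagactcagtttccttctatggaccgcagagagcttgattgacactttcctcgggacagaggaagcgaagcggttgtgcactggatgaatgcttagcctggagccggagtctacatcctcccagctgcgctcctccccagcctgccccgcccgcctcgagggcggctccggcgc
Rdx: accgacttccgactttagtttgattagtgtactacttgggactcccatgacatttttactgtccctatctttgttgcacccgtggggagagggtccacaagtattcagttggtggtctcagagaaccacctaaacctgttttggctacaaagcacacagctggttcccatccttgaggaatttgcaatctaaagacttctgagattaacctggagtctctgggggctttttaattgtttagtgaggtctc
Arpc3: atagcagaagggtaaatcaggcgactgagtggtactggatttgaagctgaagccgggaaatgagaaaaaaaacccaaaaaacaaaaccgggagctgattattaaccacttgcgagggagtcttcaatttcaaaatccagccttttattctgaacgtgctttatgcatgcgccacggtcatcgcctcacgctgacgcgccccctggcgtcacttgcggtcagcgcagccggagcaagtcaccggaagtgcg
The Actg1 region held a CArG box that begins 90 bases before the start and an E-box that begins 141 bases before it. Neither motif was found in the other 3 regions. Gsn has 3 annotated starts and Rdx 2, of which the first is shown, and gene counts do not tell which start was used. Of these regions, that of Actg1 was 79.2% G or C, against 60.8% for Gsn, 51.2% for Arpc3 and 45.2% for Rdx.

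Promoter windows of 300 bases, 250 before and 50 after a start, were held by RefSeq for 51 members. The others were Actb, Coro1b, Diaph1, Lmnb1, Lsp1, Marcks and Spire1. A CArG box was found for 5 of the 51, against 1.81% of 27025 genes with such a window, and the E-box for 4 (Actg1, Arpc5, Msn and Myl12a), against 8.09% of these genes. Each motif is its own reverse complement, so a match on 1 strand is a match on both, and no match of one overlapped a match of the other. The 5 CArG boxes are printed in capitals with up to 10 bases on each side, on the gene's strand, which is the minus strand for Actg1 and Myl6 and the plus strand for the others. They are shown because SRF sites are a known feature of actin genes.
Actg1: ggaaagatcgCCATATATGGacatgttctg
Myl6: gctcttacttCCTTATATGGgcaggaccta
Vil1: ccctatcttcCCTTATATGGtgaaggaagt
Vcl: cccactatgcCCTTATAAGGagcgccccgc
Arpc4: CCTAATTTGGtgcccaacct
They lie at chr11:120348566-120348595, chr10:128493040-128493069, chr1:74409301-74409330, chr14:20929161-20929190 and chr6:113377863-113377882. Among these genes Actg1 rose, Myl6 and Arpc4 fell, Vcl was not called and Vil1 was not tested. The median share of G and C was 61.3% over 65 windows of members, against 52.7% over all 32851 windows.

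Both cytoplasmic actins were expressed at high level and moved apart. Actb, the beta actin gene, stood at 2127, 2271 and 2241 CPM in the DP libraries, against 2506, 2475 and 2477 CPM in the DN libraries. Every DP library was below every DN library, and Actb fell slightly (log2 fold change -0.17 ± 0.03, adjusted p = 1.16e-05). Actg1, the gamma actin gene, stood at 818, 879 and 834 CPM in the DP libraries, against 683, 722 and 707 CPM in the DN libraries. Here the DP libraries were all above the DN libraries, and Actg1 rose (0.26 ± 0.04, adjusted p = 1.98e-09), though not with library totals alone (0.07, adjusted p = 0.0784). The share of Actb in the counts of both genes was 72.4% ± 0.420 in DP, against 77.9% ± 0.597 in DN (SD, n = 3 each). Of 50-base windows of Actg1 transcripts, 37.4% occur identically in another annotated gene, and 9.12% of those of Actb do, so that reads shared with copies limit both values. In mm10, Actb (ENSMUSG00000029580.14) lies on chromosome 5 from 142903115 to 142906754 and Actg1 (ENSMUSG00000062825.15) on chromosome 11 from 120345690 to 120348542, both as protein-coding genes.

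Genes for proteins that bind actin monomers were mostly lower. Tmsb10 and Tmsb4x encode thymosins, small peptides that keep monomers out of filaments. Tmsb10 had 199, 189 and 181 CPM in the DP libraries, against 380.4, 337 and 375 CPM in the DN libraries, and fell (-0.94 ± 0.04, adjusted p = 5.71e-27). Tmsb4x had 262, 254 and 256 CPM in the DP libraries, against 420.1, 437 and 436 CPM in the DN libraries, and fell as well (-0.74 ± 0.04). The groups did not overlap for either gene, and 27.0% of Tmsb10 windows occur in another gene. Cap1, a protein that strips cofilin from monomers and recharges them, fell to 586 ± 7.38 CPM in DP, against 943 ± 28.3 CPM in DN (-0.69 ± 0.03, adjusted p = 3.34e-26). Profilin, which feeds monomers to growing ends, differed little. Pfn1 had 377, 409 and 358 CPM in the DP libraries, against 410.0, 415 and 405 CPM in the DN libraries, groups that overlapped, and its call (-0.10 ± 0.04, adjusted p = 0.0128) was lost without DP replicate 3 (-0.05, adjusted p = 0.285), DP replicate 1 (adjusted p = 0.0692) or DN replicate 2 (adjusted p = 0.0527). Twf1, the monomer-binding protein twinfilin, had overlapping levels of 25.4, 20.1 and 22.2 CPM in the DP libraries, against 19.2, 17.0 and 20.7 CPM in the DN libraries. Irak4 shares 12.9% of the exonic bases of Twf1 on the opposite strand. The rise of Twf1 of 0.25 ± 0.09 (adjusted p = 0.0121) was lost without DP replicate 1 (0.16, adjusted p = 0.127), without DN replicate 2 (0.19, adjusted p = 0.0756) and with library totals alone (0.05).

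In the severing group 3 of 4 tested genes were called, near the 75.9% of all tested genes. All 3 fell, where 37.6% of all tested genes did, and gelsolin fell most of all members. Gsn, whose product cuts and caps filaments in response to calcium, had 4.74, 6.10 and 4.39 CPM in the DP libraries, against 70.3, 84.1 and 79.8 CPM in the DN libraries. The counts behind these were 80, 118 and 72 counts in the DP libraries, against 895, 802 and 778 in the DN libraries. The DN libraries were all above the DP libraries, and the level in DN was 15.1 times that in DP (-3.92 ± 0.09, adjusted p = 1.15e-39). Capg, a capping relative of gelsolin that does not sever, was at a low level in both groups, with 5.87, 6.00 and 6.04 CPM in the DP libraries, against 5.97, 7.34 and 5.23 CPM in the DN libraries. It was not called (-0.04 ± 0.15, adjusted p = 0.796), and its share of the counts of both genes was 54.3% ± 4.26 in DP, against 7.34% ± 1.03 in DN (SD, n = 3 each). Vil1, the epithelial relative villin, had 0, 1 and 1 counts in the DP libraries, against 1, 0 and 1 in the DN libraries, at or below the floor in both groups. In DN libraries the marker sums given above reached 10.3 CPM for stromal cells, 26.1 CPM for macrophages and 72.4 CPM for erythroid cells. Such sums do not bound what these cells add to the level of Gsn, and their part was not tested.

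Cofilin and its helper changed by less. Cfl1, the main filament-severing protein of lymphocytes, had 1074, 1118 and 1089.6 CPM in the DP libraries, against 1441, 1466 and 1479.6 CPM in the DN libraries, with no overlap (-0.42 ± 0.03, adjusted p = 3.55e-17). Snx32 shares 16.5% of the exonic bases of Cfl1 on the opposite strand, and at 1.90 CPM in DP and 4.77 CPM in DN it is far below it. Of Cfl1 windows, 18.3% occur in another gene. Wdr1, which speeds disassembly with cofilin, fell likewise to 319.8 ± 7.23 CPM in DP, against 438 ± 10.8 CPM in DN (-0.45 ± 0.04). Gsn (ENSMUSG00000026879.14) lies on chromosome 2 from 35256380 to 35307892 and Cfl1 (ENSMUSG00000056201.8) on chromosome 19 from 5490455 to 5495201.

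**Figure D2:**
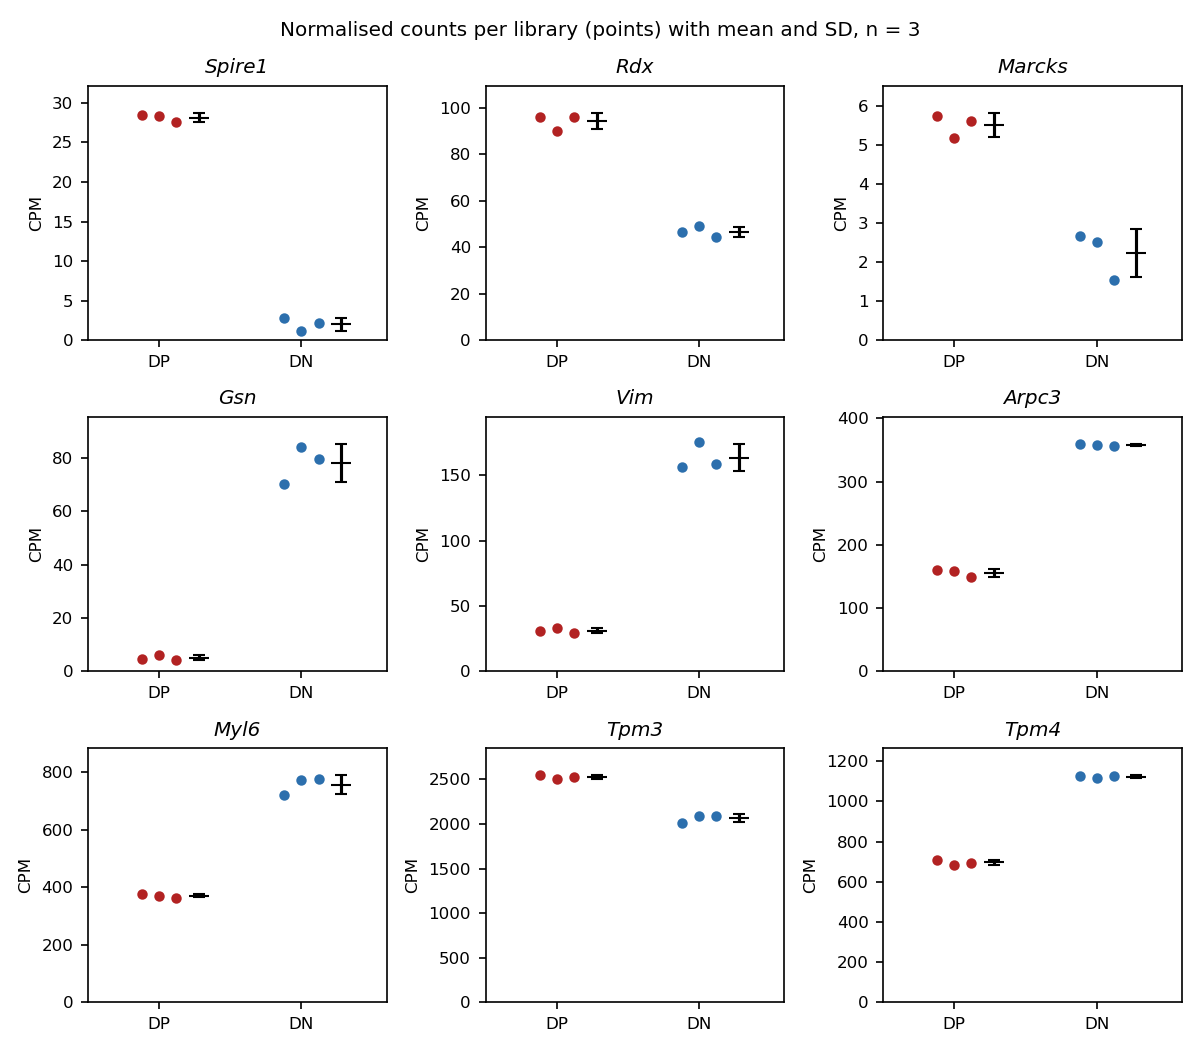
CPM of 9 members in each library (vertical axes, linear, from 0), with DP on the left and DN on the right of each panel. Points are libraries and the bar beside them is the mean with its SD (n = 3). In none of the 9 panels do the DP and DN points overlap, and 77.0% of all tested genes likewise had no overlap. Spire1, Rdx, Marcks and Tpm3 are higher in DP while the other 5 are lower.

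The Arp2/3 complex, which starts a new filament as a branch on an old one, was lower in DP in 7 of its 8 measured subunit genes, and the other one was not called, where 37.6% of all tested genes fell. The 8 genes took 0.253%, 0.250% and 0.252% of gene counts in the DP libraries, against 0.382%, 0.391% and 0.385% in the DN libraries, with no overlap. The subunits did not fall by the same amount. Arpc3 had 160.0, 159 and 148 CPM in the DP libraries, against 359, 358 and 357 CPM in the DN libraries, and fell most (-1.20 ± 0.04, adjusted p = 3.90e-36). Arpc5, which joins the branch-forming core, had 131, 133 and 134 CPM in the DP libraries, against 219, 213 and 237 CPM in the DN libraries (-0.75 ± 0.04, adjusted p = 1.70e-24). For both genes the groups were well apart. Actr3, one of the actin-related proteins that seed the branch, stood at 987 ± 21.1 CPM in DP and 1395 ± 56.7 CPM in DN (-0.50 ± 0.03), and its partner Actr2 at 456 ± 13.1 CPM in DP and 553 ± 10.4 CPM in DN (-0.28 ± 0.04). Arpc2 was the most abundant subunit per length, at 353 CPM per kilobase in DP and 392 in DN, with 725, 709.7 and 716 CPM in the DP libraries, against 820.3, 796 and 774 CPM in the DN libraries. It changed little (-0.15 ± 0.03, adjusted p = 8.39e-05) and was not called without the filter on low counts (-0.08, adjusted p = 0.0539). Arpc4 fell by 0.25 ± 0.06 on the log2 scale, and 12.2% of its exonic bases also belong to Ttll3. Of Actr3 windows, 26.3% occur in another gene.

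The ARPC1 subunit comes in an A and a B form. Arpc1b, the form that blood cells use most, had 166, 168 and 163 CPM in the DP libraries, against 182, 192 and 198 CPM in the DN libraries (-0.20 ± 0.04, adjusted p = 1.30e-05). Arpc1a had 24.8, 26.1 and 26.6 CPM in the DP libraries, against 23.5, 24.3 and 23.5 CPM in the DN libraries, without overlap, yet was not called (0.12 ± 0.08, adjusted p = 0.142), and its sign turned with library totals alone (-0.07). The share of Arpc1a in the counts of the pair was 13.5% ± 0.485 in DP, against 11.1% ± 0.425 in DN (SD, n = 3 each). Of Arpc1b windows, 24.3% occur in another gene. On the opposite strand Pdap1 shares 18.2% of the exonic bases of Arpc1b, and it rose to 1217 CPM in DP, against 554 CPM in DN. The strand setting of the counting is not given in the sources used here, so reads of the 2 genes cannot be separated with certainty.

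Genes that switch the Arp2/3 complex on, or take its branches apart, were lower as well, with 8 of 9 called lower and none higher, where 37.6% of all tested genes fell and 38.3% rose. Hcls1, a cortactin-like protein of blood cells that steadies branches, was the second most abundant member per length, at 694 CPM per kilobase in DP and 798 in DN. It had 1767, 1765 and 1728 CPM in the DP libraries, against 1995, 1986 and 2065 CPM in the DN libraries (-0.20 ± 0.03, adjusted p = 2.99e-07). Was encodes WASP, the activator that is lost in Wiskott-Aldrich syndrome, and had 114, 118 and 123 CPM in the DP libraries, against 146, 149.8 and 148 CPM in the DN libraries (-0.32 ± 0.04, adjusted p = 9.00e-10). Wasl, its widely expressed relative, had 11.6, 10.2 and 11.2 CPM in the DP libraries, against 11.5, 11.7 and 11.9 CPM in the DN libraries, and was not called (-0.09 ± 0.11, adjusted p = 0.440). Wasf2, of the WAVE activators, fell to 109 ± 2.56 CPM in DP, against 131 ± 4.68 CPM in DN (-0.26 ± 0.04). Wipf1, which protects WASP from breakdown, fell by 0.14 ± 0.04 on the log2 scale but was not called without the filter on low counts (-0.07, adjusted p = 0.217).

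All 4 coronin genes among the members fell, where 37.6% of all tested genes fell. Coronins help to remove Arp2/3 branches. Coro1a, the form typical of blood cells, had 401, 430.0 and 402 CPM in the DP libraries, against 708, 776 and 755 CPM in the DN libraries, with no overlap (-0.86 ± 0.04, adjusted p = 2.72e-29). Coro7, a coronin of the Golgi, had 77.7, 77.4 and 76.1 CPM in the DP libraries, against 131, 135 and 142 CPM in the DN libraries (-0.82 ± 0.05). Both were lower in every DP library than in any DN library. Coro1c changed less, with 100.4, 103 and 101 CPM in the DP libraries, against 117, 135 and 130.1 CPM in the DN libraries (-0.32 ± 0.05). Its share of the counts of Coro1c and Coro1a was 19.8% ± 0.394 in DP, against 14.5% ± 0.362 in DN. Coro1b had 25.4, 26.4 and 27.8 CPM in the DP libraries, against 40.5, 42.2 and 45.3 CPM in the DN libraries (-0.68 ± 0.07). Its DP libraries were all below its DN libraries, and its share of the counts of Coro1b and Coro1a was 6.06% ± 0.349 in DP, against 5.41% ± 0.252 in DN. In Coro1b, 13.5% of the exonic bases also belong to Ptprcap on the same strand, which stood at 49.3 CPM in DP and 112 CPM in DN.

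Of 6 genes that build unbranched filaments 3 were higher and 3 lower, a split near that of all tested genes (38.3% higher and 37.6% lower). Spire1, a nucleator that lines up several actin monomers to start a filament, rose more than any other member. It had 28.5, 28.4 and 27.5 CPM in the DP libraries, against 2.83, 1.15 and 2.15 CPM in the DN libraries. The counts were 481, 549 and 451 counts in the DP libraries, against 36, 11 and 21 in the DN libraries, and the ratio of DP over DN was 13.3 with a 95% exact interval of 10.4 to 17.2 for counting error (3.73 ± 0.14, adjusted p = 1.53e-32). All DP libraries were far above the DN libraries, among which DN replicate 2 was lowest. The formin genes Diaph1 and Diaph3 rose by less. Diaph1 had 275, 275 and 269 CPM in the DP libraries, against 234, 228 and 231 CPM in the DN libraries (0.24 ± 0.04, adjusted p = 8.00e-08). Diaph3 had 113, 105 and 109 CPM in the DP libraries, against 96.3, 91.1 and 90.2 CPM in the DN libraries (0.23 ± 0.05, adjusted p = 1.31e-05). With library totals alone neither was called (0.04 and 0.03). The share of Diaph3 in the counts of both was 28.5% ± 0.798 in DP, against 28.6% ± 0.530 in DN, and in this pair alone of the 16 compared the shares overlapped.

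Fmnl1, a formin of blood cells, went the other way, with 149, 155 and 149 CPM in the DP libraries, against 260.1, 271 and 278 CPM in the DN libraries (-0.83 ± 0.04, adjusted p = 8.67e-28). Evl and Vasp encode sister proteins that keep capping proteins off growing ends. Evl had 121, 126 and 119 CPM in the DP libraries, against 209, 198 and 211 CPM in the DN libraries (-0.76 ± 0.04, adjusted p = 8.29e-25). Vasp had 94.4, 101 and 94.7 CPM in the DP libraries, against 129, 123 and 119.8 CPM in the DN libraries (-0.36 ± 0.05, adjusted p = 2.05e-10). The groups were apart for all 3 genes, and the share of Vasp in the counts of Vasp and Evl was 44.2% ± 0.386 in DP, against 37.6% ± 1.22 in DN. Spire1 (ENSMUSG00000024533.17) lies on chromosome 18 from 67488209 to 67610790 and Fmnl1 (ENSMUSG00000055805.15) on chromosome 11 from 103171107 to 103198901.

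Of 13 genes for proteins that bundle filaments or tie them to the membrane, 5 were higher, 6 lower and 2 not called, which is near the 38.3% higher and 37.6% lower of all tested genes. The ERM family, which links filaments to membrane proteins, parted within itself. Rdx, which encodes radixin, had 96.1, 90.1 and 96.2 CPM in the DP libraries, against 46.6, 49.0 and 44.5 CPM in the DN libraries (1.01 ± 0.05, adjusted p = 2.12e-25). Msn, which encodes moesin, had 1279, 1293 and 1297 CPM in the DP libraries, against 1900.3, 2004 and 1979 CPM in the DN libraries (-0.60 ± 0.03, adjusted p = 2.95e-24). Ezr, which encodes ezrin, had 1138, 1136 and 1100.3 CPM in the DP libraries, against 1479.9, 1518 and 1512 CPM in the DN libraries (-0.42 ± 0.03, adjusted p = 3.45e-17). Rdx was higher in every DP library than in any DN library, and the other two were lower. Per length, radixin remained the minor form, at 20.3 CPM per kilobase in DP and 10.1 in DN, beside 204 CPM per kilobase in DP and 310.0 in DN for Msn and 342 CPM per kilobase in DP and 457 in DN for Ezr. The share of Rdx in the counts of Rdx and Msn was 6.80% ± 0.253 in DP, against 2.33% ± 0.111 in DN.

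Swap70, which bundles filaments and was first found in switching B cells, had 3076, 2979 and 3066 CPM in the DP libraries, against 2281, 2242 and 2248 CPM in the DN libraries (0.43 ± 0.03, adjusted p = 4.29e-18). Actn4, an alpha-actinin that cross-links filaments, had 404, 440.2 and 427 CPM in the DP libraries, against 303, 312 and 317 CPM in the DN libraries (0.45 ± 0.04, adjusted p = 1.24e-16). Both were higher in every DP library than in any DN library. Actn1, the other alpha-actinin, had only 26, 32 and 21 counts in the DP libraries, against 30, 31 and 20 in the DN libraries. Its fall (-0.75 ± 0.26, adjusted p = 0.00739) was lost without DN replicate 2 (-0.56, adjusted p = 0.0794). Marcks, a membrane protein that releases phosphoinositide when phosphorylated, had 5.75, 5.17 and 5.61 CPM in the DP libraries, against 2.67, 2.52 and 1.54 CPM in the DN libraries, and rose (1.27 ± 0.20, adjusted p = 6.50e-08). Its relative Marcksl1 was far more abundant, with 219, 235 and 211 CPM in the DP libraries, against 190.2, 182 and 179 CPM in the DN libraries, and rose by less (0.27 ± 0.04, adjusted p = 2.84e-08), though not with library totals alone (0.08, adjusted p = 0.0823).

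The remaining genes of the group were lower or were not called. Lsp1, a filament-binding protein of leukocytes, had 531, 521 and 505 CPM in the DP libraries, against 897, 897 and 927 CPM in the DN libraries (-0.80 ± 0.03, adjusted p = 1.71e-29). Lcp1, the bundling protein L-plastin, fell to 939.9 ± 4.74 CPM in DP, against 1257 ± 39.0 CPM in DN (-0.42 ± 0.03). Tln1, the talin gene that connects integrins to actin, fell to 446 ± 9.44 CPM in DP, against 624 ± 35.5 CPM in DN (-0.48 ± 0.04). None of the 3 had overlapping groups. Flna, the cross-linker filamin A, overlapped and was not called (-0.09 ± 0.04, adjusted p = 0.0607), but it was called lower under 9 of 20 other settings, with values of -0.28 to -0.09, among them library totals alone and 2 of the 6 fits that leave out a library. Vcl, vinculin, had only 39, 47 and 35 counts in the DP libraries, against 39, 22 and 19 in the DN libraries, and was not called (-0.11 ± 0.23, adjusted p = 0.664). Ap3m1 covers 25.5% of its exonic bases on the opposite strand, at 27.8 CPM in DP and 26.2 CPM in DN.

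Non-muscle myosin II pulls on actin filaments and is built of heavy chains with essential and regulatory light chains. Myh9, a heavy chain, had 3433, 3379 and 3387 CPM in the DP libraries, against 4101, 4122 and 4303 CPM in the DN libraries (-0.30 ± 0.03, adjusted p = 4.77e-12). Myl6, an essential light chain, fell more, with 376, 371 and 365 CPM in the DP libraries, against 719.7, 775 and 777 CPM in the DN libraries (-1.03 ± 0.04, adjusted p = 4.47e-34). The groups were apart for both. The regulatory light chain genes had few counts. Myl12a had 111, 138 and 104 counts in the DP libraries, against 74, 44 and 59 in the DN libraries, and was not called (0.28 ± 0.15, adjusted p = 0.0843). Myl12b did not pass the filter, with 3, 9 and 6 counts in the DP libraries, against 14, 13 and 6 in the DN libraries. The ratio of DP over DN for Myl12b was 0.332, with a 95% exact counting interval of 0.176 to 0.607. Of their 50-base windows, 21.1% of Myl12a and 25.4% of Myl12b occur in another gene, and a gene listed as Gm49909, which covers 26.7% of the exonic bases of Myl12b on the same strand, had 0 counts in all libraries. Levels of both are therefore uncertain.

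The tropomyosins, which coil along filaments and affect which myosins and severing proteins bind, moved in opposite directions. Tpm3 had 2543, 2502 and 2528 CPM in the DP libraries, against 2014, 2087 and 2089 CPM in the DN libraries (0.29 ± 0.03, adjusted p = 1.05e-11). Tpm4 had 710.3, 685 and 693 CPM in the DP libraries, against 1126, 1117 and 1128 CPM in the DN libraries (-0.69 ± 0.03, adjusted p = 9.19e-27). Every DP library was above every DN library for Tpm3 and below for Tpm4. The share of Tpm4 in the counts of both was 21.6% ± 0.189 in DP, against 35.3% ± 0.528 in DN (SD, n = 3 each). Per kilobase of the union of exons (6085 bases for Tpm3 and 2203 for Tpm4), that share was 43.2% ± 0.274 in DP and 60.1% ± 0.553 in DN. On that scale the more abundant of the 2 was Tpm3 in DP and Tpm4 in DN, while Tpm3 had more counts in every library. The order therefore depends on the length taken, and gene counts do not tell which transcript forms were expressed. Of Tpm3 windows 23.2%, and of Tpm4 windows 15.7%, occur in another gene. Tpm3 (ENSMUSG00000027940.18) lies on chromosome 3 from 90072649 to 90100902 and Tpm4 (ENSMUSG00000031799.10) on chromosome 8 from 72134975 to 72153142.

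Among intermediate filaments vimentin fell and lamin B2 rose, while the small rise of lamin B1 turned round under another scaling. The 4 genes took 0.175% to 0.177% of gene counts in DP libraries and 0.202% to 0.203% in DN libraries, but with the composition factor their summed levels overlapped, at 1894, 1865 and 1889 CPM in the DP libraries, against 1899, 1897 and 1893 CPM in the DN libraries. Vim had 30.8, 33.5 and 29.7 CPM in the DP libraries, against 156, 175 and 159 CPM in the DN libraries, with all DN libraries far above the DP libraries, and its level in DN was 5.20 times that in DP (-2.38 ± 0.05, adjusted p = 6.57e-44). Vimentin is also abundant in macrophages and stromal cells, whose marker lists summed to at most 26.1 and 10.3 CPM in any DN library and at most 11.3 and 7.19 CPM in any DP library, and their part in the fall was not tested. Lmnb1, which encodes lamin B1, was the third most abundant member per length, at 595 CPM per kilobase in DP and 564 in DN. It had 1775, 1742 and 1772 CPM in the DP libraries, against 1681, 1658 and 1668 CPM in the DN libraries, and was called higher by little (0.08 ± 0.03, adjusted p = 0.0283). With library totals alone it was called lower instead (-0.12, adjusted p = 7.90e-04), and it was not called without DP replicate 3 (adjusted p = 0.0583), without DN replicate 3 (adjusted p = 0.0616), with upper-quartile factors (adjusted p = 0.204), with a minimum count of 50 (adjusted p = 0.131) and without immunoglobulin genes (adjusted p = 0.0794). Lmnb2, lamin B2, had 88.1, 88.4 and 87.4 CPM in the DP libraries, against 60.5, 62.3 and 65.4 CPM in the DN libraries (0.49 ± 0.05, adjusted p = 2.60e-13), and its share of the counts of both B-type genes was 4.75% ± 0.0661 in DP, against 3.62% ± 0.149 in DN. Lmna, which encodes the A-type lamins of stiff nuclei, had 8, 8 and 3 counts in the DP libraries, against 8, 7 and 5 in the DN libraries, and was not tested. Its ratio of DP over DN was 0.579, with a 95% exact counting interval of 0.292 to 1.14. Vim (ENSMUSG00000026728.9) lies on chromosome 2 from 13573927 to 13582826.

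**Figure D3:**
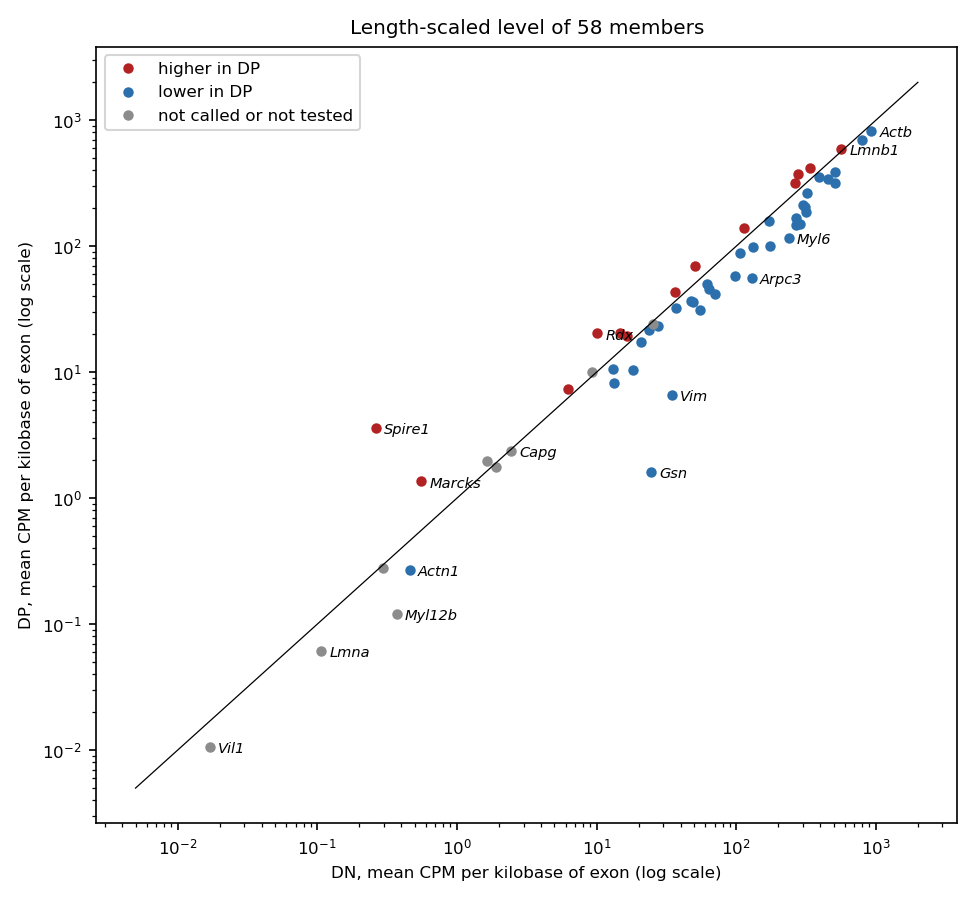
Mean level of each of the 58 members as CPM per kilobase of exon, in DP (vertical axis, log scale) against DN (horizontal axis, log scale), with a line of equal level. Red points were called higher in DP, blue points lower, and grey points were not called or not tested. Most points hug the line, while Spire1 and Marcks lie above it and Gsn and Vim below it.

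Of the members, 12 reached 1000 CPM in at least 1 group, and among them 9 fell and 3 rose, by no more than 0.69 on the log2 scale in either direction. The falls of Gsn and Vim and the rises of Spire1 and Marcks, the largest in each direction among members, were those of genes under 200 CPM in each library. Libraries of a group lay close together. Over the 50 members with a mean of at least 10 CPM, the median coefficient of variation was 2.34% in DP and 3.19% in DN.

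Shares within pairs of related genes do not depend on library scaling. In 15 of 16 pairs compared, the DP and DN shares did not overlap. Of all tested genes 77.0% had levels without overlap, but that figure is for single scaled genes, and shares of other pairs were not computed. Some pairs share Msn or Coro1a, so the pairs are not independent. For each of the 15 the exact two-sided permutation p was 0.1, the smallest that 3 against 3 can give (0.107 adjusted over 16 pairs), so that none can pass a threshold of 0.05. The largest shifts were those of Capg and Gsn, at 46.9 percentage points, of Tpm4 and Tpm3, at -13.6 points, and of Myl12a and Myl12b, at 11.2 points, the last of which rests on few counts. The share of Ezr in Ezr and Msn was 46.6% ± 0.622 in DP, against 43.4% ± 0.351 in DN. Per kilobase of exon that share was 62.7% ± 0.586 in DP and 59.6% ± 0.344 in DN, so the order of the 2 genes depends on length. The share of Tmsb10 in both thymosins was 42.5% ± 0.855 in DP, against 45.8% ± 2.02 in DN.

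**Figure D4:**
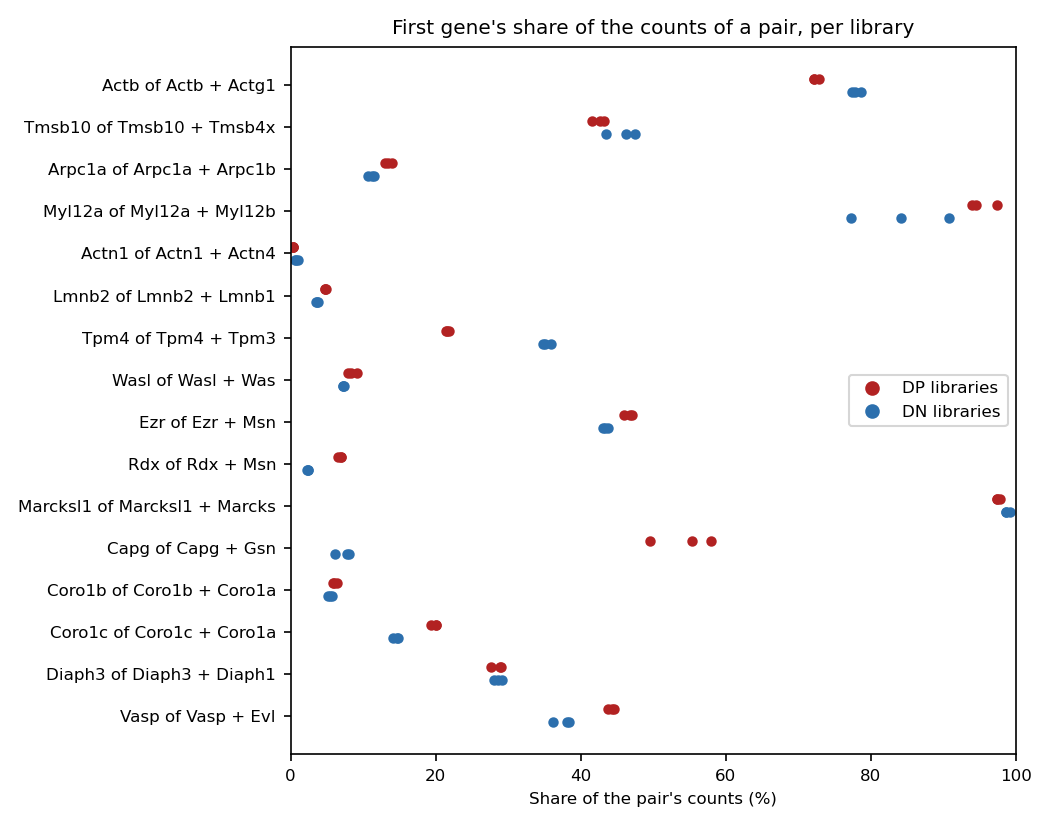
Share of the first gene in the summed counts of a pair (horizontal axis, percent), with 1 point per library, DP in red above DN in blue. Red and blue points are apart in every pair other than Diaph3 with Diaph1, and the widest gap is that of Capg with Gsn.

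A further 160 cytoskeleton genes in 8 lists had 143 tested, of which 32 were higher and 79 lower in DP with a median of -0.22, beside the 38.3% higher and 37.6% lower of all tested genes given above. Regulators of the Arp2/3 complex beyond the members had 10 of 20 lower and 6 higher. Gmfg, a protein of blood cells that dissolves branches, fell to 13.9 ± 1.01 CPM in DP, against 71.9 ± 5.51 CPM in DN (-2.37 ± 0.07, adjusted p = 9.75e-38), and Arpc5l, the alternative form of Arpc5, to 175 ± 2.64 CPM in DP, against 357 ± 13.1 CPM in DN (-1.03 ± 0.04). Abi3 of the WAVE complex fell too (-1.40 ± 0.06), while Cyfip1 of the same complex rose (1.09 ± 0.10). Jmy, an actin nucleator that is also a cofactor of p53, rose to 20.7 ± 1.53 CPM in DP, against 8.97 ± 0.402 CPM in DN (1.21 ± 0.10) and Cttn, the cortactin relative of Hcls1, to 43.7 ± 0.159 CPM in DP, against 23.2 ± 1.46 CPM in DN (0.91 ± 0.07).

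Kinases and phosphatases of actin and myosin had 10 of 16 lower and 5 higher. The cofilin phosphatase gene Ssh2 fell to 54.1 ± 2.27 CPM in DP, against 166 ± 8.22 CPM in DN (-1.61 ± 0.05), while the cofilin kinase gene Limk1 was at 3.17 ± 0.481 CPM in DP and 0.580 ± 0.147 CPM in DN and rose (2.41 ± 0.31, adjusted p = 4.69e-10). Rock2, which acts on myosin light chains, fell by 0.51 ± 0.04 on the log2 scale, and the myosin phosphatase subunit gene Ppp1r12a by 0.75 ± 0.04. Among capping, severing and formin genes outside the members, 8 of 20 fell, near the 37.6% of all tested genes, and 3 rose, where 38.3% of all tested genes did. The formin gene Inf2 stood at 40.0 ± 2.18 CPM in DP and 11.3 ± 0.715 CPM in DN (1.82 ± 0.09), and the cofilin relative Dstn at 82.3 ± 4.00 CPM in DP and 149 ± 9.61 CPM in DN (-0.85 ± 0.05). Of cross-linkers and adaptors, 12 of 19 fell and 5 rose. Fscn1, which encodes the bundling protein fascin, had 22.6, 22.7 and 22.0 CPM in the DP libraries, against 1.73, 1.68 and 2.26 CPM in the DN libraries (3.58 ± 0.14, adjusted p = 4.42e-31), the largest rise in these lists. The giant cross-linker Macf1 (-1.11 ± 0.04) and the adducin gene Add3 (-1.45 ± 0.04) fell.

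**Figure D5:**
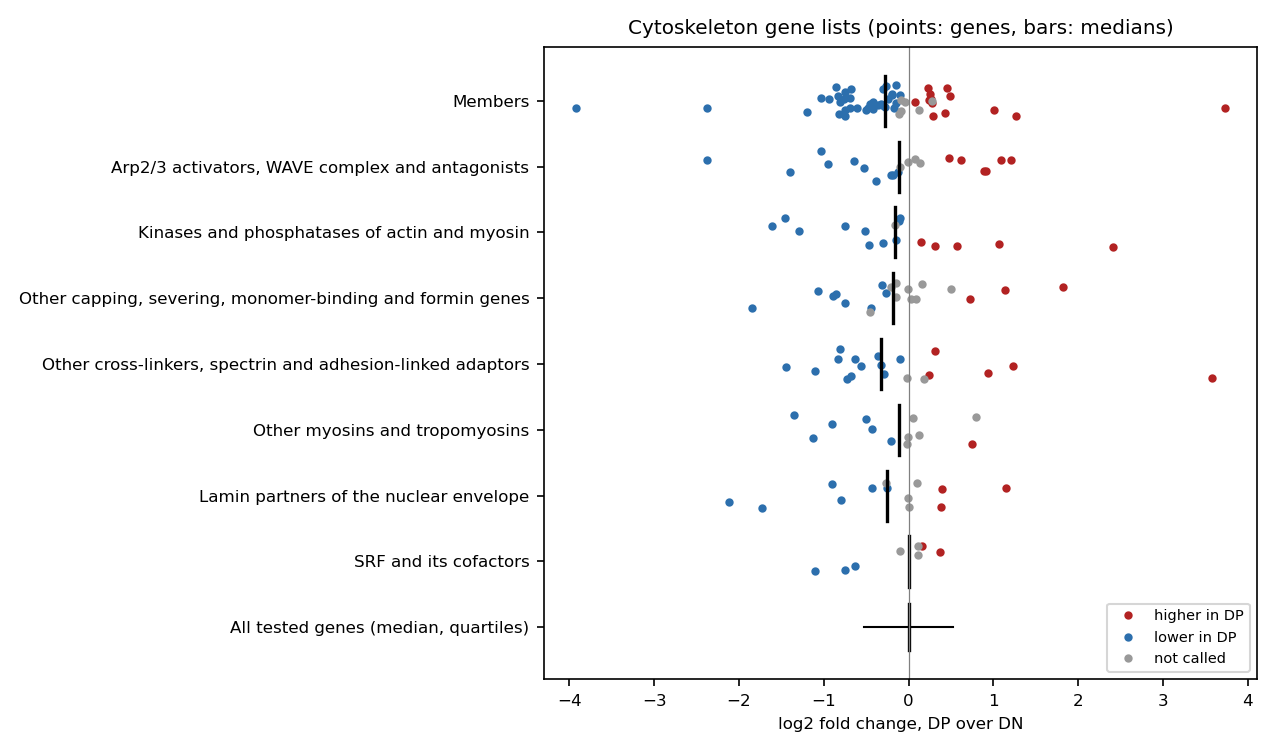
Log2 fold change of DP over DN (horizontal axis) for the tested genes of the members and of 7 of the further cytoskeleton lists, with 1 point per gene, colours for the call and a black bar at each median. The lowest line gives the median and quartiles of all tested genes. The members' median of -0.28 lies left of 0.01, the median of all tested genes.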

How the data were processed

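RNA was sequenced from 6 libraries, 3 DP and 3 DN, of sorted splenic germinal centre B cells. The deposited values are whole-number counts per gene for each library. The submitters' processing notes name HTSeq 0.13.5, STAR 2.7.10a and Trim Galore 0.6.6, with mm10 as the genome build, and per the labels the library kit was stranded. The strand setting of the counting is not given in the sources used here. Rows that name no gene took 9.47% to 9.61% of a DP library and 12.4% to 12.9% of a DN library and were left out.

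Counts of 55401 genes were fitted with edgeR 4.0.16 in R 4.3.3 (quasi-likelihood test of DP against DN, TMM factors, filterByExpr with a minimum count of 10, Benjamini-Hochberg adjustment over 11296 genes). The procedure was tested on simulated data in which few genes changed, whereas 75.9% of all tested genes were called here. That test therefore does not bear on the scaling. Gene positions, exon overlap and 50-base windows came from GENCODE M21, which held 55141 of the gene IDs, 54349 with the same version, and promoters from RefSeq in GRCm38.p6. Levels per kilobase use the union of exons. Chi-square tests of counts over genes gave 1.96 to 3.26 per degree of freedom within groups and 144 to 182 across groups. The values within groups show spread beyond counting error, but cannot tell whether libraries came from separate mice. Each library was taken as 1 replicate. Counting intervals are exact at 95%, and depth sets the floors given in the report.

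The members and the other gene lists were chosen with earlier results of these data known. Values per library were given for members that changed at least 2-fold, for the most abundant member of each role and for both genes of a pair whose shares did not overlap. Further members were added for their role after their values were seen. From each other list, up to 3 called genes of smallest p in each direction were eligible, and a few items are not reported here. Alternatives were other scalings, filters, tests (DESeq2 1.42.0, limma-voom in limma 3.58.1) and thresholds, a fit without immunoglobulin genes, a replicate block and leaving out each library. Leaving out the 10 most abundant genes and thinning DP to the mean DN depth were chosen after seeing the data.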

Additional observations from a re-analysis of the deposited data

How the results depend on the processing

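Of 55 tested members, 18 kept direction and side of the threshold under all 20 other settings. Most losses came from 1 setting, the test against a minimum change of 1.5-fold, which small changes cannot pass. Under that setting alone 32 members lost their call and 23 stayed the same. With library totals alone, 7 members were higher, 11 changed at least 2-fold and the median was -0.48, and Arpc1a (-0.072) and Lmnb1 (-0.12) changed sign. At that scaling 3290 of all 11296 tested genes were higher and 5355 lower. Of the 49 calls, 43 were kept there, and those of Diaph1, Diaph3, Actg1, Marcksl1 and Twf1 were among the lost. The members' median was -0.31 with upper-quartile factors, -0.23 with no filter, -0.31 with a minimum count of 50 and -0.31 to -0.27 when a library was left out. Against a minimum change of 1.5-fold, 3 members were higher and 14 lower, and of the other cytoskeleton genes 13 were higher and 38 lower. Of all 11296 tested genes, 1964 were higher and 1912 lower at that limit. Capg was at 0.030 with no filter, 0.019 with DP thinned to the mean DN depth and between -0.13 and 0.089 when a library was left out. Vcl was at 0.037 when thinned and between -0.24 and 0.12 when a library was left out. The cause of these shifts was not tested. The deviations of same-numbered DP and DN libraries from their group means were hardly correlated (r = 0.061, -0.0039 and -0.014 over genes), so the numbers were not used as pairs, and whether they mark a shared mouse is not known from the labels. With the replicate block, 13 members were higher and 37 lower, with a median of -0.28, and Flna gained a call (adjusted p = 0.0176). In these libraries genes with under 3 counts cannot be placed, and with 3 libraries a group a p-value for a single share cannot go below 0.1.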

Other observations

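Genes for lamin partners of the nuclear envelope and for enzymes that process lamins moved in both directions. The largest changes were falls of the nesprin genes. Nesprins span the outer nuclear membrane and connect the lamina to the cytoskeleton. Syne1 had 76.9, 83.2 and 79.7 CPM in the DP libraries, against 272, 259.5 and 267 CPM in the DN libraries (-1.73 ± 0.04, adjusted p = 1.73e-42 in edgeR's quasi-likelihood test). Syne2 had 19.5, 18.1 and 18.0 CPM in the DP libraries, against 79.5, 82.5 and 79.2 CPM in the DN libraries (-2.12 ± 0.06, adjusted p = 5.34e-38). Every DP library was below every DN library for both. Lbr, the lamin B receptor, averaged 93.5 ± 2.50 CPM in DP and 176 ± 4.43 CPM in DN (-0.91 ± 0.04). Banf1, which ties chromatin to the envelope, averaged 41.4 ± 2.71 CPM in DP and 18.7 ± 0.729 CPM in DN and rose (1.14 ± 0.08). Of the 13 genes of this list, all tested, 6 fell and 3 rose, beside 37.6% lower and 38.3% higher of all tested genes.

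Among myosin and tropomyosin genes outside the members, 6 of 12 tested genes fell and 1 rose, where 37.6% of all tested genes fell and 38.3% rose. Myo1c, which links membrane to actin and carries cargo in B cells, averaged 68.2 ± 3.83 CPM in DP and 174 ± 6.86 CPM in DN (-1.35 ± 0.05), and Myo18a averaged 131 ± 3.50 CPM in DP and 286 ± 4.72 CPM in DN (-1.13 ± 0.04). Myo1f, a myosin of blood cells, rose to 12.3 ± 1.71 CPM in DP, against 7.24 ± 0.434 CPM in DN (0.75 ± 0.13, adjusted p = 3.48e-07). In the list of SRF, its cofactors and the Mical genes, 2 of 8 were higher and 3 lower. The second is near the 37.6% of all tested genes that fell. Mical3, 1 of those higher, rose by 0.16 ± 0.07 on the log2 scale with overlapping groups. Srf itself averaged 43.4 ± 2.80 CPM in DP and 33.5 ± 1.22 CPM in DN (0.37 ± 0.07, adjusted p = 1.27e-06). Its actin-sensing cofactor gene Mrtfa averaged 20.3 ± 0.887 CPM in DP and 31.3 ± 1.40 CPM in DN (-0.63 ± 0.08), and Elk4, which encodes a partner controlled by kinases, averaged 23.7 ± 0.742 CPM in DP and 50.6 ± 1.91 CPM in DN (-1.10 ± 0.07).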
